A study of Mus musculus with 12 samples.

Results

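The semaphorins and their receptors, the plexins and neuropilins, were followed in the developing auditory nerve of the mouse. The members are all genes measured whose single annotated symbol starts with Sema or Plxn, together with Nrp1 and Nrp2. This gave 32 of the 18193 genes on the array, which are 20 semaphorins, 9 plexins, 2 neuropilins and 1 antisense transcript, Plxna4os1, which the rule takes in by its name but which is not a plexin. Nerve tissue came from untreated CBA/CaJ mice of both sexes on the day of birth (P0) and at P3, P7, P10, P14 and P21, with 2 mice at each stage and 12 arrays in all. Both cochleas of 1 mouse were pooled for each array, so the arrays of a stage are separate animals. The sex of the mouse behind each array is not given in the sources used here. The tissue was the modiolus, the central pillar that carries the auditory nerve, trimmed of most other tissue of the cochlea, so it was enriched for nerve and not pure.

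Semaphorins are secreted or membrane-bound proteins that share a sema domain and steer growing axons, migrating cells and blood vessels, most often by repulsion. Plexins are their signalling receptors, whose intracellular part switches off small GTPases of the Ras family and so loosens the cytoskeleton and adhesion of a growth cone. Most secreted class 3 semaphorins do not bind a plexin alone and need a neuropilin as the binding partner in the receptor complex. In the cochlea, members of this system are known to act while the peripheral axons of spiral ganglion neurons find the hair cells.

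Values are log2 RMA levels, in which a step of 1 is a doubling, and each gene is given by its probe set with the highest mean over the 12 arrays. Levels are compared between stages for 1 probe set and never between genes, because probe sets differ in how strongly they bind. A change is called higher or lower when the limma fit over all 12 arrays gives a Benjamini-Hochberg adjusted p under 0.05 over 45037 probe sets and the fold is over 1.5. Log2 changes from the fit are given ± SE, with 2 mice at each stage. All 31 protein-coding members stayed out of the lowest 25% of the values on every array, and Plxna4os1 fell into it on 1 array.

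Members changed in opposite directions within the family. Over the 6 stages 21 of the 32 members changed (15 semaphorins, 5 plexins and Nrp2), against 38.3% of all probe sets and 45.1% of genes taken by 1 probe set each. The widest courses were those of Sema7a, a membrane-anchored semaphorin that promotes axon growth, which spanned 6.80-fold, Sema3b, a secreted semaphorin, which spanned 4.72-fold, and Sema4f, a membrane-bound semaphorin of axon and Schwann cell contact, which spanned 4.08-fold. Sema7a and Sema3b were higher at the later stages, and Sema4f was lower. At P3 against P0, 0 members were called higher and 6 lower, against 0.981% and 2.8% of all probe sets. At P7 against P3, 11 members were called higher and 3 lower, against 6.0% and 3.98% of all probe sets. These comparisons share the P3 arrays, so a low value at P3 enters both.

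**Figure D1:**
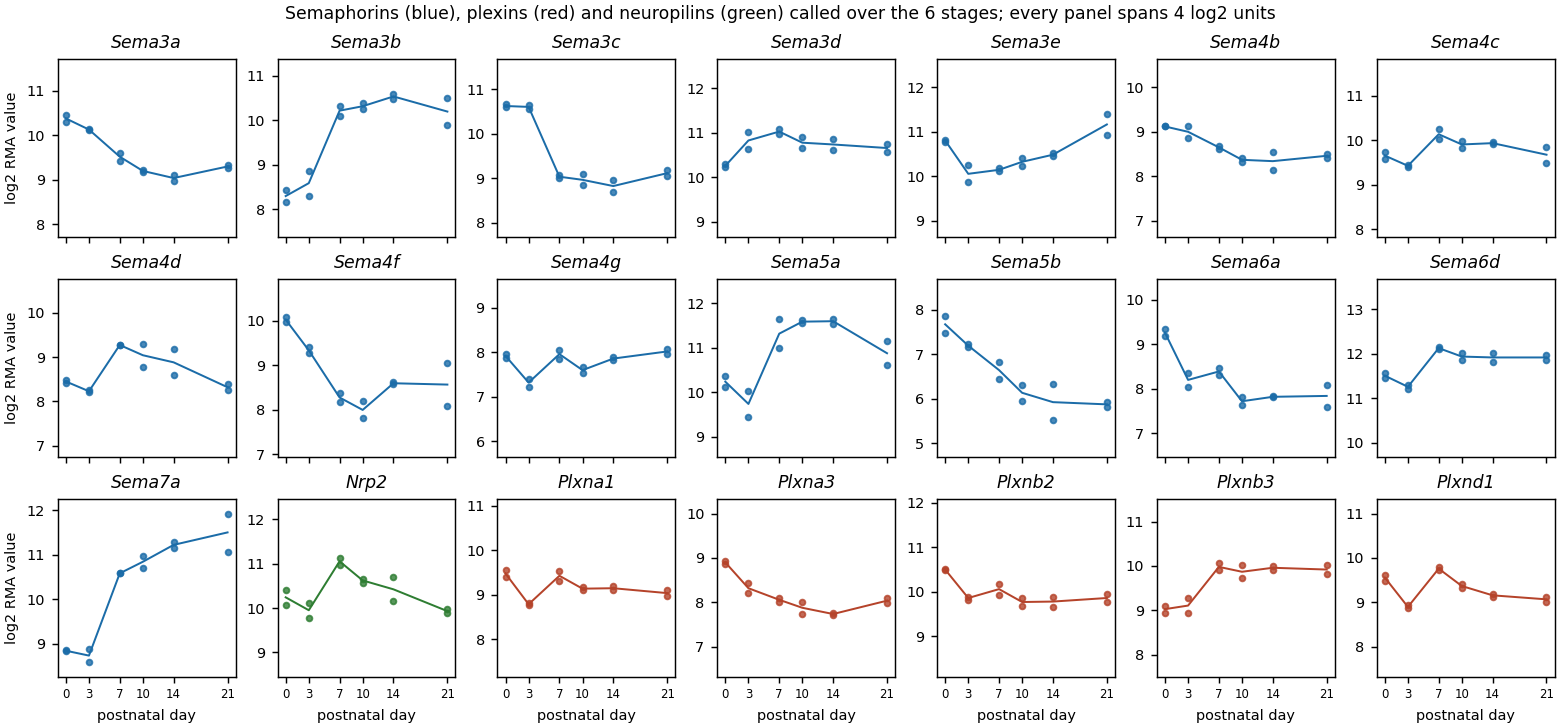
Log2 RMA values (y axis, 4 log2 units in every panel) of the 21 members called over the 6 stages, by postnatal day (x axis). Each point is 1 array from 1 mouse and each line runs through the stage means. Sema7a and Sema3b step up by P7, Sema3c steps down by P7, and Plxna1, Plxnd1 and Sema4g are lowest at P3.

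The arrays of all stages had medians between 6.70 and 6.79, and the 2 arrays of a stage correlated at 0.991 to 0.996 over all probe sets. None of 6 neuron markers and none of the 3 Schwann cell markers measured lay in the lowest 25% on all arrays. The same held for every other marker list, those of B cells and neutrophils included, so this count cannot show which cells were present. Markers of tissues around the nerve moved strongly over the same days. The summed level of 4 osteoblast markers was 26600 to 29900 at P7 and 3070 to 3150 at P3, and that of 5 osteoclast markers was 11200 to 18200 at P7 and 2900 to 3280 at P3. The summed level of 5 oligodendrocyte markers was 11900 to 15000 at P21 and 1840 to 1930 at P0, and that of 5 markers of dividing cells was 936 to 952 at P21 and 5940 to 6790 at P0. Of 6 markers of cerebellar granule neurons, 5 were called higher at P21 against P0, with a summed level of 5030 to 8590 at P21 and 3100 to 3760 at P0. The part of these cells in the results below was not tested, and in bulk tissue fewer cells of a type and less RNA per cell cannot be told apart.

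Promoter windows are shown for a pair of members that stayed higher than at P0 from P7 on, Sema7a and Plxnb3, and a pair that stayed lower, Sema3c and Plxna3, chosen among the members called against P0 at each of P7, P10, P14 and P21. Each window is from RefSeq on GRCm38.p6, runs 5′ to 3′ on the plus strand, and spans 250 bases before to 50 after the 1 transcript start that the promoter table lists for the gene. For Sema7a, Plxnb3 and Plxna3 this start lies inside the annotated gene and not at its outer end, and how it was chosen is not given in the sources used here. Capitals mark each GC box (GGGCGG) and each SOX motif (ACAAAG), read on both strands. The windows lie at chr9:57939862-57940161 for Sema7a, chrX:73756853-73757152 for Plxnb3, chr5:17574566-17574865 for Sema3c and chrX:74328816-74329115 for Plxna3.
Sema7a: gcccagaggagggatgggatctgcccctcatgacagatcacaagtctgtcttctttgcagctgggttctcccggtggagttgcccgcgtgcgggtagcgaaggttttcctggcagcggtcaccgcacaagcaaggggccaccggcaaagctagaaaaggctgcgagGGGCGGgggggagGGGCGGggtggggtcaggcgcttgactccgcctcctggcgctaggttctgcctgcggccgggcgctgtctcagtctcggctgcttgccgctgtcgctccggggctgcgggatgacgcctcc
Plxnb3: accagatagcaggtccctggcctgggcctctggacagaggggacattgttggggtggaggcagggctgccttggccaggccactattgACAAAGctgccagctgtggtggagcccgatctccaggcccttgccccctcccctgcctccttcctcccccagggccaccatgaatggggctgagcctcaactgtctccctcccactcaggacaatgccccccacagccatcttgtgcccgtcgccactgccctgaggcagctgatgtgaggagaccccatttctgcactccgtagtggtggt
Sema3c: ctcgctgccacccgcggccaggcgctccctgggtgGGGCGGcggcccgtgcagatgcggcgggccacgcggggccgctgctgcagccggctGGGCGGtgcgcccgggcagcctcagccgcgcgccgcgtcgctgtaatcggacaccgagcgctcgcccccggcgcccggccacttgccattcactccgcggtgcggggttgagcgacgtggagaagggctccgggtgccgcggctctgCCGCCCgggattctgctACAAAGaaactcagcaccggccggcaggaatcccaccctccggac
Plxna3: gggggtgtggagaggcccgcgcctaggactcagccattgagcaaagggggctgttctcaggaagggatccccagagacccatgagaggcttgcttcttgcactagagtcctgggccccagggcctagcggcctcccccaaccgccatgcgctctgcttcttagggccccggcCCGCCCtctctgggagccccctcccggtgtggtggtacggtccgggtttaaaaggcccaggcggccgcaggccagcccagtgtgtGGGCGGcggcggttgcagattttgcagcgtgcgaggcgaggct
The GC box, the site read by SP family factors, occurred 2 times in the Sema7a window, 3 times in that of Sema3c and 2 times in that of Plxna3, and the letters were not in the Plxnb3 window. The SOX motif, a core sequence bound by factors such as SOX10, occurred 1 time in the Plxnb3 window and 1 time in the Sema3c window. Of the 26 members in the promoter table, 21 held a GC box and 8 a SOX motif in at least 1 window. By window this was 73.0% of 37 member windows with a GC box, against 35.7% of all 32851 windows of the same length, and 21.6% with a SOX motif, against 18.7%. The 2 motifs share no letters in overlap in these 4 windows, and a match is a description of the sequence only.

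The secreted class 3 semaphorins divided into members that fell and members that rose. Sema3a, which collapses growth cones through Nrp1, and Sema3c, a ligand of both neuropilins best known from the cardiac outflow tract, were lower at P7, P10, P14 and P21 than at P0. Sema3b, which acts through neuropilins on axons and is a tumour suppressor in human lung, was higher at the same 4 stages. Sema3a, Sema3c, Sema3d and Sema3e lie within 1 stretch of chromosome 5 (GRCm38.p6, 12383161 to 17730268), and their courses differed in direction.

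Sema3a measured 10.29 and 10.46 at P0, 10.12 and 10.14 at P3, 9.42 and 9.61 at P7, 9.17 and 9.23 at P10, 8.97 and 9.11 at P14 and 9.33 and 9.26 at P21. Both arrays of every stage from P3 on were below both P0 arrays, and the lowest stage of this probe set was P14. The change reached -1.34 ± 0.11 log2, 2.52-fold lower, limma adjusted p = 1.72e-05 at P14 and -1.08 ± 0.11 log2, 2.11-fold lower, limma adjusted p = 4.07e-05 at P21. A dimmer probe set of Sema3a was lowest at P21, with -1.51 log2 at P14 and -1.86 at P21 against P0 (limma adjusted p = 0.00116 and 0.000227), and was called lower at P21 against P7 by 1.17 log2 (limma adjusted p = 0.00677), so its late course depends on the probe set. The remaining one, in the lowest 25% on 11 arrays, was called lower at P14. Sema3c measured 10.66 and 10.59 at P0, 10.65 and 10.55 at P3, 9.0 and 9.06 at P7, 9.08 and 8.85 at P10, 8.69 and 8.96 at P14 and 9.19 and 9.04 at P21. It was level over the first 3 days and then stepped down: -1.57 ± 0.12 log2, 2.97-fold lower, limma adjusted p = 8.54e-05 at P7 against P3. At P21 it remained -1.51 ± 0.12 log2, 2.85-fold lower, limma adjusted p = 1.25e-05 against P0. A dimmer probe set of Sema3c changed less. It gave -0.57 log2 at P7 against P3, which was not called, and -0.80 at P21 against P0, which was called lower (limma adjusted p = 0.00252). Sema3b measured 8.43 and 8.17 at P0, 8.31 and 8.87 at P3, 10.33 and 10.11 at P7, 10.39 and 10.25 at P10, 10.59 and 10.49 at P14 and 9.9 and 10.51 at P21. Its step fell in the same days but upward, with 1.63 ± 0.22 log2, 3.1-fold higher, limma adjusted p = 0.00123 at P7 against P3 and 2.24 ± 0.22 log2, 4.72-fold higher, limma adjusted p = 5.43e-05 at P14 against P0. The other probe sets of Sema3b were called higher too, with smaller changes. These were 1.05 and 1.44 log2 at P7 against P3 (limma adjusted p = 0.0118 and 0.000134) and 1.51 and 1.58 at P14 against P0 (limma adjusted p = 0.000625 and 1.52e-05). From P7 on no successive comparison of Sema3a, Sema3b or Sema3c was called. Their calls against P0 from P7 on were kept with each array left out in turn and in the other settings run, except the Student's t-test of the study's methods after Benjamini-Hochberg adjustment, which called 0 members.

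Sema3e, which binds Plxnd1 without a neuropilin and repels growing vessels, measured 10.77 and 10.82 at P0, 9.86 and 10.24 at P3, 10.17 and 10.11 at P7, 10.4 and 10.23 at P10, 10.52 and 10.45 at P14 and 10.93 and 11.4 at P21. It was lowest at P3 and highest at P21. It fell at P3 against P0 (-0.74 ± 0.17 log2, 1.68-fold lower, limma adjusted p = 0.0304) and was higher at P21 than at P7 (1.02 ± 0.17 log2, 2.03-fold higher, limma adjusted p = 0.0017), a comparison added after the values were seen. The call at P3 was lost without replicate 1 of P0, replicate 2 of P0 or replicate 1 of P3 (log2 change -0.77, -0.72 and -0.56, limma adjusted p = 0.154, 0.142 and 0.157). The 3 other probe sets of Sema3e did not show the late rise: at P21 against P0 they changed by -0.20, -0.87 and -0.72 log2, and the last 2 were called lower (limma adjusted p = 0.00423 and 0.00600), whereas the one used changed by 0.37, and at P21 against P7 they changed by 0.48, -0.51 and 0.02 and were not called. Sema3d, which acts in patterning of heart and vessels, measured 10.23 and 10.29 at P0, 11.02 and 10.64 at P3, 10.97 and 11.09 at P7, 10.91 and 10.66 at P10, 10.86 and 10.61 at P14 and 10.74 and 10.57 at P21. It was lowest at P0, and the change at P7 was 0.77 ± 0.15 log2, 1.71-fold higher, limma adjusted p = 0.00689, a call lost without replicate 1 of P0 (log2 change 0.74, limma adjusted p = 0.0516). Its second probe set was higher at P7 too, by 1.0 log2 (limma adjusted p = 0.0424), but was lowest at P21 and called lower there than at P7, by 1.3 log2 (limma adjusted p = 0.00845). Sema3g, a semaphorin of endothelial cells that signals through Nrp2, measured 8.13 and 7.9 at P0, 7.3 and 7.5 at P3, 7.72 and 8.21 at P7, 7.6 and 7.67 at P10, 7.66 and 7.28 at P14 and 6.91 and 7.61 at P21. Its P21 arrays lay far apart, the higher one still below both P0 arrays. The call at P21 against P0 (-0.76 ± 0.24 log2, 1.69-fold lower, limma adjusted p = 0.0266) was lost without replicate 1 of P0, replicate 2 of P0 or replicate 1 of P21 (log2 change -0.64, -0.87 and -0.4, limma adjusted p = 0.147, 0.0531 and 0.2). Sema3f, the Nrp2 ligand known to restrain spiral ganglion axons in the cochlea, ranged from 8.83 to 9.19 over the 12 arrays and was called in no comparison. The probe set used for Sema3f carries a suffix for probes that may bind other transcripts too. A dimmer probe set of Sema3f was called lower at P10, P14 and P21 against P0, by 0.69, 0.82 and 0.94 log2 (limma adjusted p = 0.0109, 0.00379 and 0.00131). The remaining one changed by -0.18 log2 at P21 and was not called. The gene therefore has no single course on this array.

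Of the 6 class 4 semaphorins, which span the membrane and signal mainly through B plexins, 5 changed over the stages, each with its own course. Of all genes taken by 1 probe set each, 45.1% changed. Sema4f measured 9.98 and 10.08 at P0, 9.27 and 9.42 at P3, 8.17 and 8.39 at P7, 7.81 and 8.19 at P10, 8.59 and 8.62 at P14 and 8.08 and 9.06 at P21. Its probe set carries a suffix used for probes that may bind other transcripts too. It was highest at P0 and lowest at P10, a change of -2.03 ± 0.26 log2, 4.08-fold lower, limma adjusted p = 0.000302. At P21 it was still -1.46 ± 0.26 log2, 2.75-fold lower, limma adjusted p = 0.00126 against P0, although its P21 arrays stood far apart, at 8.08 and 9.06. The second probe set of Sema4f fell too, by 1.32 log2 at P10 (limma adjusted p = 0.000227) and by 0.92 at P21 (limma adjusted p = 0.00114). Sema4b, which binds a scaffold protein of synapses, measured 9.12 and 9.13 at P0, 9.14 and 8.87 at P3, 8.62 and 8.69 at P7, 8.41 and 8.33 at P10, 8.55 and 8.13 at P14 and 8.51 and 8.42 at P21. It was lower from P10 on, with -0.76 ± 0.14 log2, 1.69-fold lower, limma adjusted p = 0.00305 at P10, but its other, dimmer probe set changed by -0.15 log2 at P10 and -0.05 at P21 and was not called.

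Sema4d, the Plxnb1 ligand also known as a product of osteoclasts that restrains bone formation, measured 8.41 and 8.49 at P0, 8.25 and 8.21 at P3, 9.28 and 9.26 at P7, 8.78 and 9.3 at P10, 9.18 and 8.59 at P14 and 8.4 and 8.25 at P21. It peaked at P7, where both arrays lay above all P0, P3 and P21 arrays. The step at P7 against P3 was 1.04 ± 0.2 log2, 2.06-fold higher, limma adjusted p = 0.00704, and at P21 against P7 the gene had fallen again (-0.94 ± 0.2 log2, 1.93-fold lower, limma adjusted p = 0.00644). The call at P7 against P3 was lost without replicate 1 of P7 (log2 change 1.03, limma adjusted p = 0.0521). A further probe set of Sema4d followed another course, with 1.55 log2 at P7, 2.19 at P10 and 2.44 at P21 against P0 (limma adjusted p = 0.00216, 0.000143 and 4e-05) and a rise of 0.88 at P21 against P7, where the brighter one fell. The remaining probe set of the gene changed by 0.04, 0.12 and 0.17 log2 at P7, P10 and P21 against P0 and was not called. The array therefore holds 3 different courses for Sema4d, and the direction after P7 depends on the probe set. The osteoclast markers peaked on the same day as the brighter probe set, with a summed level of 824 to 877 at P21 against 11200 to 18200 at P7, and 4 of 5 were called lower at P21 against P7. The oligodendrocyte markers moved like the rising probe set, with 5 of 5 called higher at P21 against P0. The part of either cell type was not tested.

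Sema4c and Sema4g, both ligands of Plxnb2, were lowest at P3. Sema4c measured 9.74 and 9.59 at P0, 9.41 and 9.44 at P3, 10.04 and 10.25 at P7, 9.84 and 9.98 at P10, 9.97 and 9.91 at P14 and 9.5 and 9.85 at P21. Its step at P7 against P3 was 0.72 ± 0.13 log2, 1.65-fold higher, limma adjusted p = 0.00612, and at P21 against P0 it had changed by only 0.01 log2. Sema4g measured 7.97 and 7.88 at P0, 7.22 and 7.41 at P3, 8.06 and 7.86 at P7, 7.68 and 7.53 at P10, 7.83 and 7.89 at P14 and 7.97 and 8.08 at P21. The P3 arrays lay below all others, with -0.61 ± 0.12 log2, 1.53-fold lower, limma adjusted p = 0.016 at P3 against P0 and 0.64 ± 0.12 log2, 1.56-fold higher, limma adjusted p = 0.00508 at P7 against P3. The call at P3 against P0 was lost without replicate 1 of P0, replicate 2 of P0 or replicate 1 of P3 (log2 change -0.56, -0.66 and -0.52, limma adjusted p = 0.13, 0.0733 and 0.0981), and that at P7 against P3 was lost without replicate 1 of P3 or replicate 1 of P7 (log2 change 0.55 and 0.55, limma adjusted p = 0.0364 and 0.0563). Sema4a, a ligand of the immune system and the retina, ranged from 6.65 to 7.25 and was called in no comparison. The probe set used for it carries the same suffix as that of Sema4f.

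The class 5 semaphorins, marked by thrombospondin repeats and known to restrict neurite growth in the retina, went in opposite directions. Sema5a, a Plxnb3 ligand, measured 10.37 and 10.11 at P0, 10.03 and 9.44 at P3, 11.65 and 11.0 at P7, 11.62 and 11.56 at P10, 11.66 and 11.54 at P14 and 10.62 and 11.15 at P21. It was lowest at P3 and highest at P10 and P14, and the step at P7 against P3 was 1.59 ± 0.25 log2, 3.01-fold higher, limma adjusted p = 0.00283. At P14 it stood 1.36 ± 0.25 log2, 2.57-fold higher, limma adjusted p = 0.00234 against P0, and at P21 the change of 0.64 log2 did not pass the test (limma adjusted p = 0.0657). Of its other probe sets, 2 were called higher at P21 as well, by 0.90 and 0.99 log2 (limma adjusted p = 0.00197 and 0.0025), while one in the lowest 25% on all 12 arrays changed by -0.05. Sema5b measured 7.86 and 7.48 at P0, 7.15 and 7.23 at P3, 6.45 and 6.83 at P7, 5.95 and 6.31 at P10, 5.52 and 6.33 at P14 and 5.82 and 5.92 at P21. It was lower at every stage from P7 on, with -1.8 ± 0.25 log2, 3.48-fold lower, limma adjusted p = 0.000277 at P21 against P0, and its call at P7 was lost without replicate 1 of P0 or replicate 1 of P7 (log2 change -0.84 and -0.84, limma adjusted p = 0.138 and 0.149). Its second probe set was called lower at P10, by 0.75 log2 (limma adjusted p = 0.00281), and changed by -0.52 at P21 (limma adjusted p = 0.014), under the fold limit.

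Of the 4 class 6 semaphorins, which signal through A plexins, Sema6a was called lower than at P0 at every later stage. Sema6d was called higher than at P0 at P7 only. Sema6a, the ligand of Plxna2 and Plxna4 that guides migrating granule cells and axons, measured 9.34 and 9.19 at P0, 8.04 and 8.35 at P3, 8.32 and 8.46 at P7, 7.81 and 7.64 at P10, 7.84 and 7.81 at P14 and 7.6 and 8.09 at P21. All P3 and later arrays were below both P0 arrays. It fell by P3 (-1.07 ± 0.17 log2, 2.1-fold lower, limma adjusted p = 0.00727) and stood at -1.42 ± 0.17 log2, 2.68-fold lower, limma adjusted p = 0.000101 at P21. The call at P3 was lost without replicate 1 of P0 or replicate 1 of P3 (log2 change -1.0 and -0.92, limma adjusted p = 0.0755 and 0.0509), and that at P21 was kept with each array left out in turn. Of its other 2 probe sets, both dim, one was called lower at P21, by 1.0 log2 (limma adjusted p = 0.00108), and the other changed by -0.06. Sema6d, a Plxna1 ligand, measured 11.56 and 11.46 at P0, 11.21 and 11.3 at P3, 12.1 and 12.16 at P7, 12.02 and 11.86 at P10, 12.03 and 11.82 at P14 and 11.86 and 11.97 at P21. The step at P7 against P3 was 0.88 ± 0.11 log2, 1.83-fold higher, limma adjusted p = 0.00091, and its 3 dimmer probe sets changed there by 0.24, 0.59 and -0.15 log2, with the 0.59 at a limma adjusted p of 0.00723. Against P0 Sema6d changed by 0.62 log2 at P7, a call lost without replicate 2 of P0, and by 0.40 at P21, which was not called. With the mean of all probe sets its calls at P7 against P0 and at P7 against P3 were lost. Sema6b, a ligand of Plxna4, and Sema6c ranged from 6.61 to 7.04 and from 8.12 to 8.54, and neither was called in any comparison.

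Sema7a, held in the membrane by a lipid anchor and signalling through beta1 integrin and Plxnc1, showed the largest change among the probe sets used for the members. It measured 8.86 and 8.83 at P0, 8.59 and 8.87 at P3, 10.59 and 10.58 at P7, 10.71 and 10.98 at P10, 11.29 and 11.15 at P14 and 11.07 and 11.92 at P21. All arrays from P7 on lay at 10.58 or above, and the P0 and P3 arrays lay between 8.59 and 8.87. The step at P7 against P3 was 1.86 ± 0.23 log2, 3.62-fold higher, limma adjusted p = 0.000762, and at P21 the gene was 2.65 ± 0.23 log2, 6.28-fold higher, limma adjusted p = 1.58e-05 against P0. Its second, dimmer probe set also rose, by 0.94 log2 at P7 and 1.44 at P21 against P0 (limma adjusted p = 0.033 and 0.00143). The brighter probe set rose further at P21 against P7 (0.91 ± 0.23 log2, 1.88-fold higher, limma adjusted p = 0.0144), a call lost without replicate 1 of P7, replicate 2 of P7 or replicate 2 of P21 (log2 change 0.92, 0.9 and 0.48, limma adjusted p = 0.0558, 0.0686 and 0.0548). The osteoblast and oligodendrocyte markers were also higher at P21 than at P0, with 4 of 4 and 5 of 5 called. Of 6 neuron markers, 2 were called higher and 2 lower. Also called higher were 5 of 6 cerebellar granule neuron, 3 of 5 astrocyte, 3 of 5 neutrophil and 3 of 3 erythroid markers, with 0 lower in each list. Other lists fell, such as that of dividing cells, with 5 of 5 called lower. The part of these cells was not tested.

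**Figure D2:**
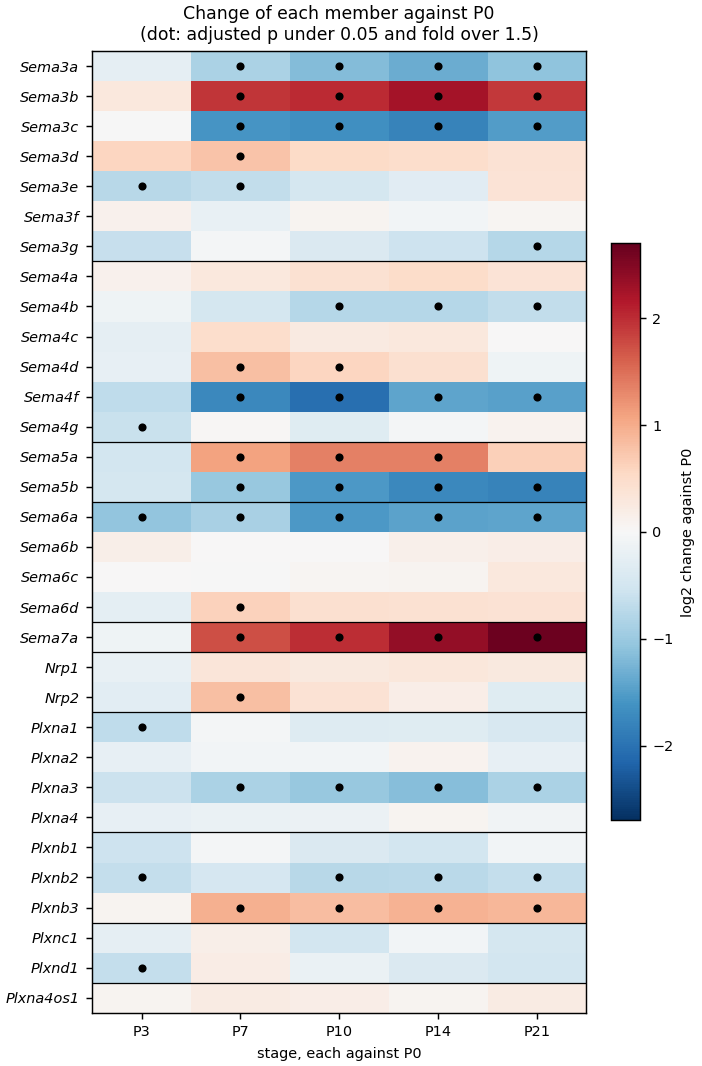
Log2 change of each of the 32 members (rows, by class) at P3, P7, P10, P14 and P21 against P0 (columns), by colour, with red for higher and blue for lower at the later stage. Dots mark limma calls, and the columns share the P0 arrays. Dots fill the rows of Sema3a, Sema3b, Sema3c, Sema4f, Sema5b, Sema6a, Sema7a, Plxna3 and Plxnb3 from P7 on, while most other receptor rows hold few.

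Of the 11 plexins and neuropilins, 6 were called over all stages, against 45.1% of genes taken by 1 probe set each. At P21 against P0, 1 was higher (Plxnb3) and 2 lower (Plxna3 and Plxnb2), against 12.4% and 14.9% of all probe sets. Nrp1, the co-receptor for Sema3a and for VEGF, ranged from 11.36 to 11.97 and passed the test over all stages (limma adjusted p = 0.0132) with a span of 1.44-fold, under the limit. At P7 against P3 it was higher by 0.52 log2 (limma adjusted p = 0.0122), also under the fold limit, and 2 of its other 3 probe sets were called higher in that comparison, by 0.66 and 0.63 log2 (limma adjusted p = 0.00741 and 0.0266). One of them was also called higher at P7 and P10 against P0, by 0.69 and 1.24 log2 (limma adjusted p = 0.0161 and 0.000349).

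Nrp2, the co-receptor for Sema3f and Sema3c and for the lymphatic VEGFs, measured 10.41 and 10.07 at P0, 10.12 and 9.78 at P3, 10.97 and 11.13 at P7, 10.57 and 10.66 at P10, 10.69 and 10.15 at P14 and 9.88 and 9.97 at P21. Both P7 arrays stood above all others. It rose at P7 against P3 (1.1 ± 0.19 log2, 2.14-fold higher, limma adjusted p = 0.00405) and was lower again at P21 against P7 (-1.12 ± 0.19 log2, 2.18-fold lower, limma adjusted p = 0.00201). The fall after P7 was also called on 2 of its 3 other probe sets, by 0.76 and 1.75 log2 (limma adjusted p = 0.00248 and 0.000298), and the third changed by -0.32. At P21 against P0 the probe sets disagreed: the one used changed by -0.32, and the others by 0.00, -1.27 and 0.44 log2, of which the -1.27 was called (limma adjusted p = 0.00056). The osteoclast and macrophage marker lists peaked at P7 too, with 4 of 5 and 4 of 5 called higher at P7 against P3, and their part was not tested.

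Among the A plexins, the receptors that pair with neuropilins and also bind class 6 semaphorins, Plxna3 and Plxna1 changed. Plxna3, which works with neuropilins in axon pruning and repulsion, measured 8.94 and 8.87 at P0, 8.21 and 8.44 at P3, 8.01 and 8.1 at P7, 7.75 and 8.0 at P10, 7.72 and 7.76 at P14 and 7.98 and 8.11 at P21. All arrays after P0 were below both P0 arrays, with -1.16 ± 0.12 log2, 2.24-fold lower, limma adjusted p = 7.28e-05 at P14 and -0.86 ± 0.12 log2, 1.82-fold lower, limma adjusted p = 0.000304 at P21. Its second probe set, in the lowest 25% on 9 arrays, was called lower in the same direction at P7 and P21, by 0.71 and 0.68 log2 (limma adjusted p = 0.00142 and 0.000545). Plxna1, a receptor for Sema3a complexes and for Sema6d, measured 9.55 and 9.41 at P0, 8.81 and 8.77 at P3, 9.32 and 9.53 at P7, 9.11 and 9.18 at P10, 9.2 and 9.1 at P14 and 8.97 and 9.1 at P21. The P3 arrays lay below all others, with -0.69 ± 0.11 log2, 1.61-fold lower, limma adjusted p = 0.0079 at P3 against P0 and 0.64 ± 0.11 log2, 1.55-fold higher, limma adjusted p = 0.00425 at P7 against P3. The first call was lost without replicate 1 of P0 (log2 change -0.62, limma adjusted p = 0.0845), and the second was lost without replicate 2 of P7 (log2 change 0.53, limma adjusted p = 0.0325). Its dimmer second probe set changed by -0.08 and -0.10 log2 in these comparisons and was not called. Plxna2 and Plxna4, the receptors of Sema6a, ranged from 8.81 to 9.72 and from 6.61 to 7.0, and the probe sets used for them were called in no comparison. Another probe set of Plxna2 was called lower at P3 against P0, by 0.6 log2 (limma adjusted p = 0.0487). Plxna4os1, transcribed within the Plxna4 locus on chromosome 6, ranged from 4.96 to 5.46 and was not called either.

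Of the B plexins, the receptors of class 4 semaphorins that couple to RhoA through PDZ-binding exchange factors, Plxnb3 rose and Plxnb2 fell. Plxnb3, a Sema5a receptor known from oligodendrocytes, measured 9.11 and 8.95 at P0, 8.95 and 9.27 at P3, 10.07 and 9.9 at P7, 10.02 and 9.72 at P10, 9.91 and 10.01 at P14 and 10.02 and 9.82 at P21. All arrays from P7 on were above all P0 and P3 arrays. The step at P7 against P3 was 0.88 ± 0.15 log2, 1.83-fold higher, limma adjusted p = 0.00387, and at P21 it was 0.89 ± 0.15 log2, 1.85-fold higher, limma adjusted p = 0.000888 against P0. The second probe set rose at P7 and P10 against P0, by 0.94 and 0.68 log2 (limma adjusted p = 0.00164 and 0.00479), but at P21 its change was 0.38 (limma adjusted p = 0.0506). The brighter probe set carries a suffix used for probes that may bind more than 1 transcript. Plxnb2, the receptor of Sema4c in neural progenitors, measured 10.49 and 10.52 at P0, 9.82 and 9.89 at P3, 9.93 and 10.18 at P7, 9.68 and 9.86 at P10, 9.89 and 9.66 at P14 and 9.96 and 9.77 at P21. All later arrays lay below both P0 arrays, with -0.65 ± 0.13 log2, 1.57-fold lower, limma adjusted p = 0.0197 at P3 and -0.74 ± 0.13 log2, 1.66-fold lower, limma adjusted p = 0.00193 at P10. The call at P3 was lost without replicate 1 of P0, replicate 2 of P0, replicate 1 of P3 or replicate 2 of P3 (log2 change -0.66, -0.64, -0.62 and -0.68, limma adjusted p = 0.119, 0.107, 0.0982 and 0.0565). Plxnb1, the main Sema4d receptor, ranged from 8.43 to 9.11. It passed the adjusted p at P3 against P0, with -0.56 log2 (limma adjusted p = 0.00997), but not the fold limit, and its other probe set changed there by -0.04.

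Plxnd1, the Sema3e receptor of endothelial cells and developing neurons, measured 9.62 and 9.49 at P0, 8.87 and 8.94 at P3, 9.73 and 9.79 at P7, 9.33 and 9.41 at P10, 9.19 and 9.13 at P14 and 9.0 and 9.13 at P21. It was lowest at P3 and highest at P7. It fell at P3 against P0 (-0.65 ± 0.1 log2, 1.57-fold lower, limma adjusted p = 0.00672), rose at P7 against P3 (0.86 ± 0.1 log2, 1.81-fold higher, limma adjusted p = 0.000593) and was lower again at P21 against P7 (-0.7 ± 0.1 log2, 1.62-fold lower, limma adjusted p = 0.000901). The first of these calls was lost without replicate 1 of P0 (log2 change -0.58, limma adjusted p = 0.073), and the other 2 were kept with each array left out. The summed level of 6 endothelial markers was 3860 to 4480 at P3 and 5300 to 5710 at P0, with 2 of 6 called lower, and was 3500 to 4040 at P7, where Plxnd1 had returned, with 0 of 6 called at P7 against P3. Their part in the change of Plxnd1 was not tested. Plxnc1, the Sema7a receptor, measured 8.98 and 8.99 at P0, 8.78 and 8.71 at P3, 9.07 and 9.21 at P7, 8.28 and 8.71 at P10, 9.16 and 8.65 at P14 and 8.6 and 8.4 at P21. It was not called against P0 at any stage, and at P21 it was lower than at P7 (-0.64 ± 0.18 log2, 1.56-fold lower, limma adjusted p = 0.0245), a call lost without replicate 1 of P7, replicate 2 of P7 or replicate 2 of P21 (log2 change -0.71, -0.57 and -0.54, limma adjusted p = 0.0577, 0.128 and 0.116). A second probe set was called lower there as well, by 0.82 log2 (limma adjusted p = 0.0388), while 4 others lay in the lowest 25% on all 12 arrays.

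Set side by side, ligands and their known receptors did not follow 1 course. Sema7a was higher at P21 than at P0 by 2.65 log2, whereas Plxnc1 changed by -0.48 (limma adjusted p = 1.58e-05 and 0.0545). Sema5a and Plxnb3 were both higher at P7 than at P3, by 1.59 and 0.88 log2. Sema3a and Sema6a were lower at P21 than at P0 by 1.08 and 1.42 log2, while Nrp1 changed by 0.27, Plxna2 by -0.22 and Plxna4 by -0.10 and were not called. Of the other A plexins, Plxna3 was lower as well, by 0.86 log2 (limma adjusted p = 0.000304). Plxna1 changed by -0.44 log2 (limma adjusted p = 0.00839), under the fold limit. Sema3e and Plxnd1 were both lower at P3 than at P0, by 0.74 and 0.65 log2, and differed at P21 against P7, where Plxnd1 was lower by 0.70 and Sema3e higher by 1.02 on the probe set used, a rise not called on its 3 others. Sema4d, by its brightest probe set, was higher at P7 than at P0 by 0.82 log2, and Plxnb1, its receptor, changed by -0.06. The Sema4d call was lost without replicate 1 of P0, replicate 2 of P0, replicate 1 of P7 or replicate 2 of P7 (log2 change 0.78, 0.86, 0.81 and 0.83). At P7 against P3 both were higher, by 1.04 log2 for Sema4d and 0.50 for Plxnb1 (limma adjusted p = 0.00704 and 0.00686), the latter under the fold limit. The other probe set of Plxnb1 changed there by 0.02.

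In the order of the stages, the calls of members lay at P3 against P0 and at P7 against P3. Of the 32 members, 20 had both P3 arrays below both P0 arrays and 3 had both above, against 22.9% and 28.0% of all probe sets (26.9% and 31.6% of genes taken by 1 probe set each). The median change at P3 against P0 was -0.24 log2 for the members and 0.03 for all probe sets, and for the 9 plexins it was -0.56. The 6 members called lower were Sema3e, Sema4g, Sema6a, Plxna1, Plxnb2 and Plxnd1, where 3.78% of genes taken by 1 probe set each were called lower and 1.61% higher. This count rests on single arrays: it was 0 without replicate 1 of P0, 3 without replicate 2 of P0, 2 without replicate 1 of P3 and 7 without replicate 2 of P3. The 6 other probe sets of Sema3e, Sema6a and Plxna1 gave 0 such calls, and Sema4g, Plxnb2 and Plxnd1 have no other probe set. Beside the 0 members called higher, limma's unadjusted p under 0.05 with the fold limit gave 0, and the methods' t-test, at its own unadjusted p and the same fold limit, 0.

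At P7 against P3, 17 members had both P7 arrays above both P3 arrays, against 24.0% of all probe sets (27.6% of genes), and 7 had both below, against 33.0% (36.5% of genes). The 11 called higher were Sema3b, Sema4c, Sema4d, Sema4g, Sema5a, Sema6d, Sema7a, Nrp2, Plxna1, Plxnb3 and Plxnd1, and the 3 called lower were Sema3a, Sema3c and Sema4f, where 7.81% and 5.36% of genes taken by 1 probe set each were called higher and lower. The call of Sema3a was lost without replicate 1 of P7 (log2 change -0.52). That of Sema4f was lost without replicate 1 of P3, replicate 2 of P3 or replicate 1 of P7 (log2 change -1.14, -0.99 and -0.96). The median change was 0.20 log2 for the members and -0.04 for all probe sets. Of the 11 called members that have other probe sets, 7 were called in the same direction by at least 1 of these, and no other probe set was called in the opposite direction. Of the 21 members called over all stages, 7 were highest at P7 (33.3%, against 6.97% of the 8205 genes called) and 9 lowest at P3 (42.9%, against 20.8%). These counts hold for the probe sets used, and some extremes were narrow. Plxnb3 had means of 9.98 at P7 and 9.96 at P14, and Sema7a had 8.73 at P3 and 8.84 at P0.

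**Figure D3:**
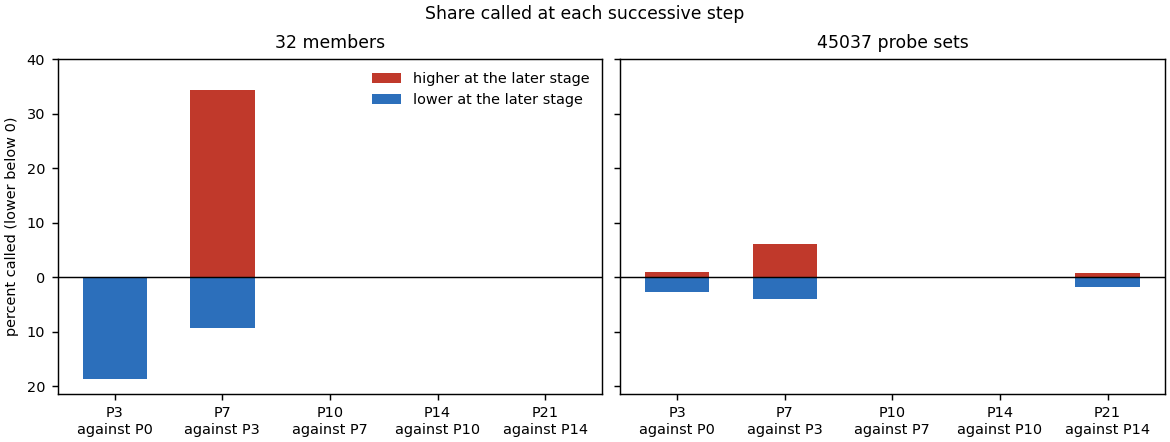
Percent of the 32 members (left) and of the 45037 probe sets (right) called higher (red, above 0) or lower (blue, below 0) at each successive step of stages (x axis). The bars of the members stand at P3 against P0 and at P7 against P3, and no member was called at the 3 later steps.

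No member was called at P10 against P7, P14 against P10 or P21 against P14, where 0.104%, 0.0% and 0.722% of all probe sets were called higher and 0.127%, 0.0% and 1.73% lower, so that few calls were made on the whole array at these steps. The median change at P10 against P7 was -0.21 log2 for the members and -0.28 for the 9 plexins, against -0.0 for all probe sets. The comparisons P7 against P3, P10 against P7 and P21 against P7 share the P7 arrays, so a high value at P7 enters all of them. With limma's unadjusted p under 0.05 and the fold limit, the 3 comparisons gave 2 members (Sema6a and Plxnc1), 1 (Sema4f) and 2 (Sema3e and Sema5a), and the methods' t-test gave 1 (Sema6a), 0 and 0. Over the longer span of P21 against P7, chosen after seeing the data, 2 members were higher (Sema3e and Sema7a) and 6 lower (Sema3g, Sema4d, Sema5b, Nrp2, Plxnc1 and Plxnd1), against 8.16% and 9.57% of all probe sets. Of the 19 alternative settings, left-out arrays included, 13 lost the call of Sema3g and 11 that of Sema5b. Without 1 of the P7 arrays the total of 8 became 5 (replicate 1) or 4 (replicate 2).

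Against P0, whose arrays all these comparisons share, members were called in both directions at every stage from P7 on. At P7 8 were higher and 7 lower (5.44% and 5.68% of all probe sets), at P10 5 and 8 (9.24% and 10.1%), at P14 4 and 8 (10.2% and 11.3%) and at P21 3 and 9 (12.4% and 14.9%). Sema4d is among the 5 higher at P10, a call lost in 12 of the 19 alternative settings, left-out arrays included. The 3 higher at P21 were Sema3b, Sema7a and Plxnb3, and the 9 lower were Sema3a, Sema3c, Sema3g, Sema4b, Sema4f, Sema5b, Sema6a, Plxna3 and Plxnb2. At P7 the higher count was 5 without replicate 1 of P0, 4 without replicate 2 of P0 and 5 without replicate 1 of P7, and the lower count was 4 without replicate 1 of P0 and 4 without replicate 1 of P7. At P21 the higher count was 5 without replicate 1 of P21.

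**Figure D4:**
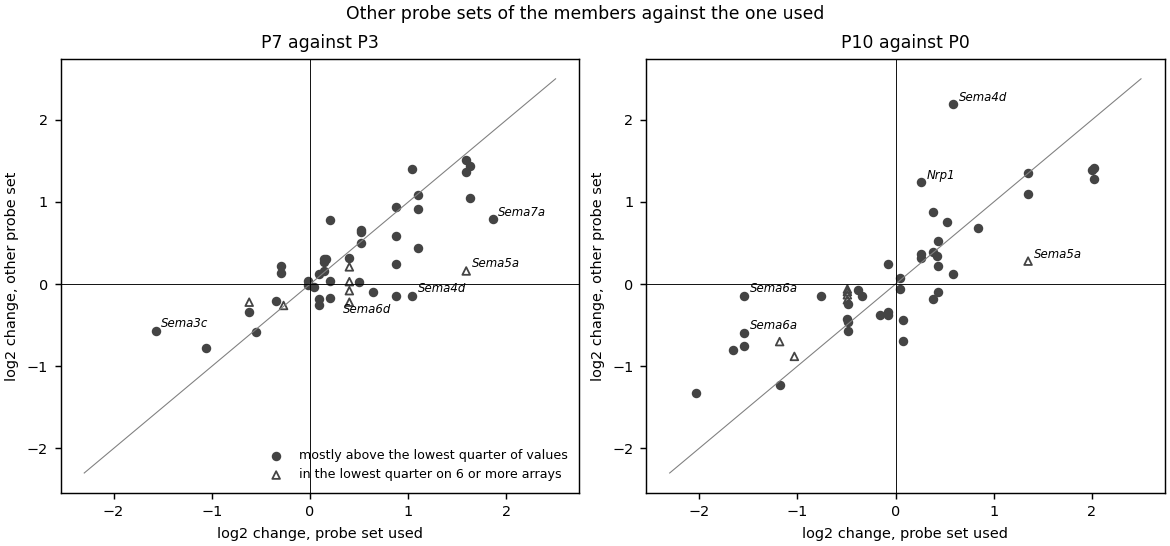
Log2 change of each of the 47 other probe sets of the members (y axis) against that of the probe set used for the same gene (x axis), at P7 against P3 (left) and P10 against P0 (right). Each point is 1 probe set, open triangles lie in the lowest 25% of values on 6 or more arrays, and the line marks equal change. Most points with a large change share its direction, and Sema4d has one at 2.19 log2 where the probe set used gave 0.59.

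The 79 probe sets of the 32 members allowed a check within 25 genes, although probe sets of 1 gene share the arrays. At P10 against P0, 11 of the 12 called members with another probe set had at least 1 called in the same direction, and 13 of these 18 probe sets were called so. At P21 against P0 this held for 7 of 10 members and 8 of 13 probe sets. None of the other probe sets of a called member was called in the opposite direction in any comparison, except the one of Sema4d at P21 against P7. With all probe sets of a gene averaged, 3 members were lower at P3 against P0 and 5 higher at P21 against P0.

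Partners of the family were read from 3 lists. Each partner is given by 1 probe set, and no check by other probe sets or left-out arrays is given for them. Of 13 co-receptors and membrane partners, 3 were higher and 5 lower at P21 against P0 (12.4% and 14.9% of all probe sets), and 2 higher and 1 lower at P7 against P3 (6.0% and 3.98%). Cntn2, an axonal adhesion protein also found at the juxtaparanode, was at 8.63 and 9.49 at P21 against 7.32 and 7.14 at P0 (3.56-fold higher, limma adjusted p = 0.00019). Tyrobp, the adaptor through which Plxna1 signals with Trem2 in osteoclasts and myeloid cells, was at 10.37 and 10.01 at P21 against 9.3 and 9.03 at P0 (2.03-fold higher, limma adjusted p = 0.00254). Of 5 macrophage markers, 5 were called higher at P7 and at P10 against P0, the stages where Tyrobp was highest, and 0 at P21, and their part was not tested. Cd72, the immune receptor of Sema4d, was at 6.76 and 6.51 at P21 against 5.48 and 5.83 at P0 (1.97-fold higher, limma adjusted p = 0.0123). All 3 rose without overlap of arrays. This is no separate support, because all 80 called changes of single members were without overlap too. Ptk7, a Wnt coreceptor that also binds A plexins, was at 8.01 and 7.78 at P21 against 9.76 and 9.58 at P0 (3.42-fold lower, limma adjusted p = 3.41e-06). Itgb1, the beta1 integrin that binds Sema7a, was at 8.2 and 8.38 at P21 against 9.77 and 9.69 at P0 (2.71-fold lower, limma adjusted p = 0.000257), and Itga1, its alpha1 partner, at 7.16 and 7.56 at P21 against 8.48 and 8.43 at P0 (2.14-fold lower, limma adjusted p = 0.000404). Before that, at P7 against P3, Itgb1 was called higher (1.69-fold, limma adjusted p = 0.0282), the step at which Sema7a rose.

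Of 8 VEGF ligands and receptors, which share the neuropilins with the class 3 semaphorins, 1 was higher and 2 lower at P21 against P0, against 12.4% and 14.9% of all probe sets. Pgf, a ligand of Flt1 and the neuropilins, was at 8.54 and 8.97 at P21 against 7.95 and 7.84 at P0 (1.82-fold higher, limma adjusted p = 0.000717). Kdr, the main VEGF receptor of endothelial cells, was at 8.01 and 8.34 at P21 against 9.67 and 9.53 at P0 (2.69-fold lower, limma adjusted p = 0.000124), and Flt4, the lymphatic VEGF receptor, at 6.39 and 7.02 at P21 against 7.49 and 7.48 at P0 (1.72-fold lower, limma adjusted p = 0.00626). The endothelial markers, 3 of 6 lower and 0 higher in the same comparison, had a summed level of 2940 to 3330 at P21 and 5300 to 5710 at P0, and their part was not tested.

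Of the 28 intracellular effectors of plexins measured, 4 were higher and 7 lower at P21 against P0 (12.4% and 14.9% of all probe sets), and 4 higher and 0 lower at P7 against P3 (6.0% and 3.98%). Rnd1, a small GTPase that binds and activates plexins, was at 8.07 and 7.42 at P21 against 5.23 and 4.74 at P0 (6.77-fold higher, limma adjusted p = 2.18e-05), and it also rose by 2.23 log2 at P7 against P3. Limk1, the kinase that inactivates cofilin, was at 10.19 and 10.77 at P21 against 9.29 and 9.28 at P0 (2.29-fold higher, limma adjusted p = 0.000322), and Rnd2, a relative of Rnd1, at 10.56 and 10.41 at P21 against 9.66 and 9.65 at P0 (1.78-fold higher, limma adjusted p = 0.00103). Rnd3, which opposes RhoA, was at 9.2 and 9.11 at P21 against 11.6 and 11.67 at P0 (5.58-fold lower, limma adjusted p = 5.04e-07). Dpysl3 and Crmp1, of the collapsin response mediators that carry the Sema3a signal to microtubules, were at 10.03 and 10.01 at P21 against 12.0 and 11.95 at P0 (3.88-fold lower, limma adjusted p = 7.82e-06) and at 7.54 and 8.45 at P21 against 9.87 and 9.63 at P0 (3.38-fold lower, limma adjusted p = 0.000436). The 3 Rnd GTPases on the list thus changed in different directions, Rnd1 and Rnd2 upward and Rnd3 downward.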

How the data were processed

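RNA of nerve-enriched cochlear tissue was measured on 12 Affymetrix mouse 3' expression arrays, 1 mouse each, from 100 ng of total RNA. Per the labels, the authors processed scans in Expression Console by RMA and MAS5, with versions not given in the sources used here. The deposited values are log2 RMA levels of probe sets, after background correction and quantile normalization. RMA compresses changes of dim probe sets, and no detection calls were used. The table held 0 columns of other samples. Arrays have no read depth, and 2 arrays per stage limit precision.

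Of 45101 probe sets, 64 controls were set aside. Symbols came from the platform annotation, in which 34945 probe sets had 1 symbol, 932 several and 9160 none, and only those with 1 symbol were named. A gene was taken by its probe set with the highest mean. Comparisons of stages used limma 3.58.1 (R 4.3.3) on all 12 arrays in 6 groups (6 residual and 4.03 prior degrees of freedom), with Benjamini-Hochberg over 45037 probe sets, a threshold of 0.05 and a fold limit of 1.5. The fit was tested on simulated data. A moderated F-test compared all stages. The methods' t-test at the authors' limits, a replicate block, array weights, an intensity trend, a filter on the lowest 25%, a shift to 1 median, the mean of a gene's probe sets and each array left out were alternatives.

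All members are named, and members called in a comparison of 2 stages are given by array. Partners named are up to 3 higher and 3 lower per list at P21 against P0, by fold. The members and lists were chosen with earlier results of these data known. Marker lists covered neurons, glia and the cells of tissues around the nerve. Lists are given beside some results only, and a result without a list beside it may have lists that moved in the same comparison.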

Additional observations from a re-analysis of the deposited data

How the results depend on the processing

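The 80 called changes of single members kept their direction with 1 exception: with the mean of all probe sets, Sema4d at P21 against P7 changed by 0.02 log2, against -0.94 with the brightest probe set, as its probe sets differ in course. Of the 80, 48 stayed called in every setting other than the t-test. With the mean of all probe sets, the members lower at P3 against P0 numbered 3, those higher at P21 against P0 5 and those called at P21 against P7 5. The methods' t-test called 1 at P10 against P7 and 5 at P21 against P7, and an intensity trend 1 at P21 against P14. After Benjamini-Hochberg adjustment the t-test, with 2 residual degrees of freedom, called 0 in each direction at P3, P7, P10, P14 and P21 against P0, 0 at P7 against P3 and 0 at P21 against P7.

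With each array left out in turn, the members higher ranged from 0 to 1 at P3 against P0, 4 to 8 at P7, 4 to 5 at P10, 4 to 6 at P14 and 3 to 5 at P21, and those lower from 0 to 7, 4 to 7, 8 to 9, 7 to 8 and 8 to 9. The members called ranged from 10 to 14 at P7 against P3, 0 to 0 at P10 against P7 and P14 against P10, 0 to 1 at P21 against P14, 4 to 7 at P21 against P7 and 19 to 23 over all stages. The lone array left at a stage is assumed to vary like the others.

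In the main fit the replicate numbers were not taken to pair the samples. Deviations of same-numbered arrays correlated at -0.12 to 0.32 over 15 pairs of stages, over 0.1 in 6. Whether same-numbered arrays share a factor was not tested. With the replicate block 78 of the 80 calls stayed, and those of Sema4d at P10 against P0 and Sema3g at P21 against P7 were lost.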
